A study of Mus musculus with 12 samples.

Results

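The genes described here are the expressed *Zfp* zinc finger genes of mouse embryonic stem cells (ESCs): symbols that start with Zfp and a digit, other than *Zfp42*, *Zfp352* and symbols starting with Zfp36, with a mean of at least 5 FPKM over all 8 libraries. FPKM is the number of fragments for each kilobase of a transcript, relative to the depth of the library. Of 24881 symbols, 396 matched the name, 385 remained after the exclusions by name, and 167 reached the mean of 5. The other 218 lay under it, and 8 of them were at 0 in all libraries. The values that chose the members are their own means. *Zfp72* (5.00), *Zfp935* (5.05) and *Zfp386* (5.11) lay just inside, and *Zfp931* (4.98), *Zfp282* (4.97) and *Zfp687* (4.96) just outside. The exclusions by name removed 4 genes above the threshold, *Zfp42* (396), *Zfp367* (21.8), *Zfp36l1* (17.4) and *Zfp369* (7.12).

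WT and P53-/- ESCs of the R1 line were grown in 2i or in serum, and each of these 4 groups gave 2 RNA-seq libraries. All cells carried the FUCCI reporters, which mark cell cycle phases, and were sorted in G1 phase. 2i is a serum-free medium with inhibitors of MEK and GSK3 and with LIF, while serum is the classical ESC medium. The P53-/- cells were clones made with CRISPR-Cas9. Clones 1 and 2 were sequenced, and which clone gave which column is not stated. No source says that the WT libraries of a group came from separate cultures, so p values measure only the spread between these libraries. The libraries of a group are numbered by their order in the table.

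Most mammalian zinc finger proteins of this kind bind DNA through arrays of C2H2 fingers, in which pairs of cysteines and histidines hold a zinc ion. A large class also carries a KRAB box, which recruits TRIM28 (KAP1) and through it SETDB1, heterochromatin proteins and DNA methylation to silence retroelements and imprinted loci. KRAB zinc finger genes often lie in tandem on the chromosome, and in ESCs they hold endogenous retroviruses silent. Other Zfp proteins are transcription factors of pluripotent cells, RNA binding proteins or ribosome factors that share only the name.

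Of the 167 members, 166 matched a coding gene of GENCODE M21 (GRCm38), by symbol, and *Zfp33b* did not. The coding sequences of 72 members held at least 1 C2H2 finger and a match to the KRAB pattern, 92 held fingers without that match, and 2, *Zfp330* and *Zfp935*, held no finger. The pattern missed boxes that depart from it, such as that of *Zfp445*, so the smaller class is a lower count. Among members with fingers the median was 10 fingers and the range 1 to 33, with 33 in *Zfp462*. In all, 61 members lay in 10 runs of at least 4 neighbours separated by no more than 500 kb. In 34 members at least 10% of the transcript's 50-base words also occurred in another gene, and in 12 at least 50%, so reads of these members could be split between copies and their levels are uncertain.

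A pair of neighbouring runs on chromosome 4 holds 11 KRAB genes that resemble each other in sequence. RefSeq promoters (250 bases before to 50 after a start, GRCm38.p6) were given for 8 of these genes. The promoters of 4 of them are shown because these genes moved together between cultures and are alike in sequence. *Zfp600* lies at chr4:146156577-146156876 on the plus strand, *Zfp979* at chr4:147642459-147642758 on the minus strand, *Zfp980* at chr4:145670447-145670746 on the plus strand and *Zfp985* at chr4:147553027-147553326 on the plus strand. Capitals mark bases in words of 12 bases that all 4 promoters hold.
Zfp600: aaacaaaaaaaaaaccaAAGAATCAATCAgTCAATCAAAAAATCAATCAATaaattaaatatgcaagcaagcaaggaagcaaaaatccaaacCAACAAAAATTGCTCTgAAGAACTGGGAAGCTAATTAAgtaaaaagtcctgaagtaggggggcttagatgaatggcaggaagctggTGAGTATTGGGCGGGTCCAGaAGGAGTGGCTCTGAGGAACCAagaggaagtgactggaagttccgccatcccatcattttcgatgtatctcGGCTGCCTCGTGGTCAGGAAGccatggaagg
Zfp979: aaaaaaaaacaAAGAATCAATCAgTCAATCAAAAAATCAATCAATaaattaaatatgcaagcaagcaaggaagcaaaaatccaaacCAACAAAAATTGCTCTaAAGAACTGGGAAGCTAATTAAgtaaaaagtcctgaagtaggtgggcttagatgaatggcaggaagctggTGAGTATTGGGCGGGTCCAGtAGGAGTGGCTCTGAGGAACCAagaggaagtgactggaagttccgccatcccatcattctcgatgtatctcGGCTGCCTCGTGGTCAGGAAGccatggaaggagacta
Zfp980: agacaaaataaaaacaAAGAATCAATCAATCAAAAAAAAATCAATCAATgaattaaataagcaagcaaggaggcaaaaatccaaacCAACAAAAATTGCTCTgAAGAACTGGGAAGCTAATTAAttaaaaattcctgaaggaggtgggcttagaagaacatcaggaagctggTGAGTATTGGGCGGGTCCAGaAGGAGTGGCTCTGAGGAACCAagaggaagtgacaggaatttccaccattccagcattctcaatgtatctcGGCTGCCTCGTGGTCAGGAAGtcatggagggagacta
Zfp985: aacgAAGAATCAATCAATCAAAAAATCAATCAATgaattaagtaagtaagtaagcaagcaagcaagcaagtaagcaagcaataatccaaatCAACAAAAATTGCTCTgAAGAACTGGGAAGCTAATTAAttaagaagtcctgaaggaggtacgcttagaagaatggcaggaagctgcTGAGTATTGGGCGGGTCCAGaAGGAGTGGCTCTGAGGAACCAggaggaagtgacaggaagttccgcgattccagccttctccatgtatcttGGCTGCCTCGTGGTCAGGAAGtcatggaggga
The words common to all 4 covered 132 of 300 bases in *Zfp600*, *Zfp979* and *Zfp980*, and 129 in *Zfp985*. Identity after alignment was highest between *Zfp600* and *Zfp979*, at 94.8%, and lowest between *Zfp600* and *Zfp985*, at 81.7%. Across the 174 promoters given for 139 members the median was 13.5 CG pairs, against 7 for all 32851 promoters of the table, and the promoters of the chromosome 4 runs had a median of 5. A decamer of the P53 response element, searched by its consensus (a palindrome, so both strands are read), was found in 12 promoters of members, 6.90%, and in 8.36% of all promoters.

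The libraries held about 5200000 to 13000000 fragments, as estimated from the steps between low values. At this depth counting error alone was 10.9% at 5 FPKM in the least deep library and 6.87% in the deepest, for a transcript of median length. *Trp53* was at 26.8 and 33.7 FPKM in WT 2i against 7.25 and 1.88 without P53. The serum values were 77.6 and 75.1 for WT and 16.8 and 3.68 for P53-/- ESCs. The P53-/- libraries of each culture lay below WT and differed from each other. Summed ESC markers lay between 3545 and 4480 FPKM in all libraries, and 5 of 6 fibroblast or feeder markers stayed under 1 FPKM in every library. Their sum was nevertheless higher in serum, at 7.73 to 10.5 FPKM against 0.456 to 1.34 in 2i, which came mainly from *Thy1*. Summed 2-cell-like markers ranged from 3.87 to 39.3 in P53-/- 2i and from 5.63 to 13.5 in WT 2i, and from 0.363 to 8.75 and 1.98 to 2.05 in serum. Summed neural markers were at 37.6 to 42.4 in P53-/- serum against 27.5 to 28.8 in WT serum, and the other way in 2i, at 22.98 to 27.98 against 31.7 to 34.2, mainly through *Tubb3*. Other neural markers went against the sum, as *Pax6* in serum, at 0.618 and 0.565 in WT against 0.362 and 0.226, and *Pax6*, *Nes* and *Map2* in 2i, where their P53-/- libraries lay above WT. Summed mesoderm markers were at 2.61 to 3.64 in P53-/- 2i against 5.93 to 6.42 in WT 2i, and at 2.57 to 3.24 against 4.03 to 4.04 in serum. Summed primitive endoderm markers were at 1.47 to 2.32 against 2.49 to 4.36 in 2i and at 1.28 to 1.35 against 2.62 to 2.82 in serum. The part of these markers in the results was not tested. In bulk RNA, fewer cells of a kind and less RNA per cell cannot be told apart.

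Member levels ran from 5.00 to 148 FPKM with a median of 9.72. The highest mean belonged to *Zfp207* (148), a spindle and splicing factor known as BuGZ. It was followed by *Zfp990* (110) and *Zfp979* (102) of the chromosome 4 runs. *Zfp57*, the KRAB protein that keeps methylation at imprinted loci, had a mean of 99.3. *Zfp330* (79.7), *Zfp622* (57.5), a ribosome biogenesis factor, *Zfp985* (52.96), *Zfp428* (50.6), *Zfp106* (48.8), an RNA binding protein, and *Zfp706* (47.1) completed the 10 highest. The summed FPKM of the 167 members was 1921 and 2102 in the WT libraries of 2i and 2123 and 2258 in the P53-/- ones. For serum it was 2930 and 3234 with WT and 3658 and 3717 without P53. Both 2i groups thus lay below both serum groups, and each P53-/- group lay above its WT group.

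**Figure D1:**
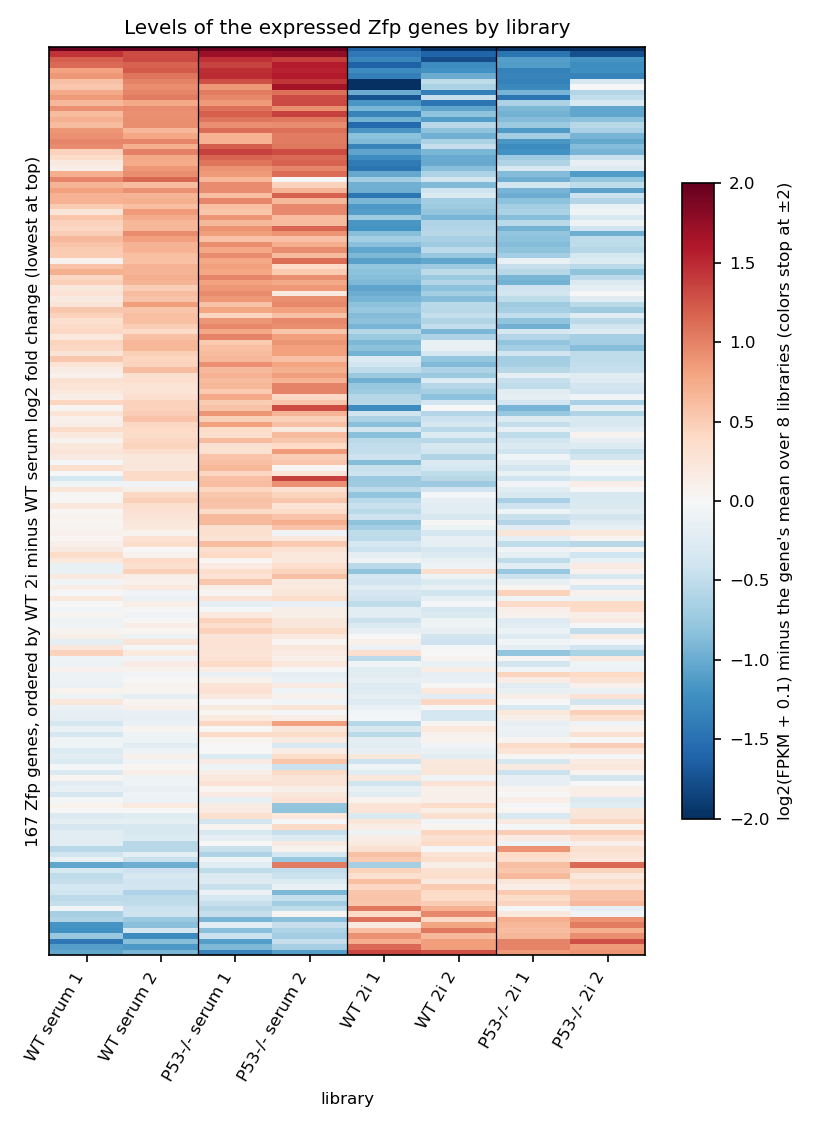
Each line is a member and each column a library, colored by log2(FPKM + 0.1) minus the gene's mean over the 8 libraries. Lines are ordered by the WT 2i minus WT serum difference, and the upper lines, lower in 2i in both genotypes, outnumber the lines at the bottom that were higher in 2i.

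The comparison of 2i with serum asked how the genes differ between ground state and serum ESCs. In WT ESCs, 84 members were lower in 2i and 20 were higher, with limma's adjusted p under 0.1 and a fold over 1.5. The members lower in 2i were 50.3% of the 167, against 28.6% of all 12572 genes tested, and the members higher in 2i were 12% against 27.2%. The median log2 fold change of the members was -0.61, and that of all genes tested -0.02. All 104 called members had libraries that did not overlap between cultures, with 65.9% of members wholly below serum against 41.7% of all genes, and 16.8% wholly above against 40% of all genes.

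In P53-/- ESCs, which share no library with the WT comparison, 90 members were lower in 2i (53.9% against 30.1% of all genes) and 16 were higher (9.58% against 28%). The median was -0.73, against -0.03 for all genes. The 2i libraries lay wholly below serum for 70.7% of members (42.1% of all genes) and wholly above for 17.4% (39.7%). Of the members, 80 were lower in both genotypes (47.9%, against 24.1% of all genes tested) and 15 were higher in both (8.98% against 22.1%). A further 52 were called in neither (31.1% against 32.4%), and none was called in opposite directions (0.183% of all genes). A member could reach the mean of 5 through 1 culture alone and then had to differ: 34 members had a mean under 5 in 2i only, of which 30 were called lower in WT, and 10 had a mean under 5 in serum only, of which all 10 were called higher. Among the 123 members at or above 5 in both cultures, 54 were lower in WT (43.9%, against 30.1% of the 6847 genes tested that met the same limits) and 10 were higher (8.13% against 20.6%). In P53-/- ESCs 59 of them were lower (48% against 29.3%) and 8 were higher (6.50% against 23%).

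The largest falls were in *Zfp423*, *Zfp462* and *Zfp326*. *Zfp423*, a factor of neural and adipocyte precursors that cooperates with SMADs, was at 0.695 and 0.494 FPKM in WT 2i against 12.7 and 13.2 in serum. It was 18.98-fold lower in 2i (log2 fold change -4.25, SE 0.23, limma adjusted p = 2.1e-05). In P53-/- ESCs it was at 0.211 and 0.291 in 2i against 12.2 and 12.5 in serum. *Zfp462*, needed in neural development, was at 1.63 and 1.43 in WT 2i against 12.5 and 11.4 in serum (-2.89, SE 0.18, limma adjusted p = 2.85e-05). All 3 genes passed the mean of 5 only through their serum libraries, as did *Zfp953* and *Zfp808* among the 10 largest falls in WT, so that the choice of members favoured their falls.

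*Zfp281*, a partner of the pluripotency network that takes part in the exit from the naive state, was well expressed in each culture. It was at 10.9 and 14.2 FPKM in WT 2i against 51.9 and 59.8 in serum, and at 11.1 and 11.1 in P53-/- 2i against 79.8 and 85.2. The log2 fold change was -2.15 (SE 0.15, limma adjusted p = 3.98e-05) in WT and -2.88 (SE 0.15, limma adjusted p = 1.57e-05) in P53-/- ESCs. Of 15 members on the list of pluripotency and embryonic factors, 9 were lower in WT 2i (60%, against 50.3% of all members) and 1 was higher, and the counts were equal in P53-/- ESCs. *Zfp516* was the higher one, at 9.74 and 8.77 in WT 2i against 5.64 and 5.30 in serum (0.75, SE 0.14, limma adjusted p = 0.00248). *Zfp207*, at 110 and 124 in WT 2i against 152 and 181 in serum, was under the fold of 1.5 in WT (-0.50, SE 0.13). In P53-/- ESCs it was called lower, at 99.3 and 95.9 in 2i against 218 and 204 in serum (-1.11, SE 0.13, limma adjusted p = 0.00025).

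Of 8 members on the list of retroelement and imprint silencing, 4 were lower in WT 2i (50%, against 50.3% of all members) and 1 was higher. In P53-/- ESCs, 6 of the 8 were lower (75%, against 53.9% of all members) and 0 were higher by limma. *Zfp788*, 1 of these 6, had its highest values in P53-/- serum, at 6.75 and 8.94 FPKM against 4.45 and 4.76 in P53-/- 2i. Its WT libraries were at 3.36 and 5.20 in 2i and at 3.94 and 4.59 in serum. Its mean over all libraries was 5.25, so the choice of members favoured its fall. *Zfp809*, which initiates silencing of Moloney-like proviruses, was at 12.3 and 15.2 FPKM in WT 2i against 38.6 and 43.7 in serum (-1.58, SE 0.23, limma adjusted p = 0.000713). *Zfp445*, which acts with *Zfp57* at imprinted loci, was at 9.87 and 11.5 against 30.2 and 30.7 (-1.51, SE 0.16, limma adjusted p = 0.000162). *Zfp568*, a repressor of a placental *Igf2* promoter, and *Zfp932*, a retrovirus silencer, were also lower, by -0.92 (SE 0.13) and -1.27 (SE 0.18). *Zfp932* shared 55.5% of its transcript words with other genes. *Zfp819*, which represses retroelements in ESCs, was the member that rose in WT and was a member only through 2i, at 7.12 and 10.7 against 3.41 and 4.09 (1.202, SE 0.26, limma adjusted p = 0.00472). In P53-/- ESCs it did not pass, at 6.32 and 5.23 in 2i against 3.95 and 5.64 in serum. *Zfp57* did not pass the test in WT, at 119 and 95.4 in 2i against 131 and 109 in serum, and was lower in 2i in P53-/- ESCs (-0.92, SE 0.15, limma adjusted p = 0.00128).

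Among the RNA binding, ribosome and translation factors, 4 of 9 members were lower in WT 2i (44.4%, against 50.3% of all members) and 1 was higher (11.1% against 12%). *Zfp326*, a subunit of the DBIRD complex of RNA polymerase II elongation and splicing, was at 1.93 and 1.37 FPKM in WT 2i against 11.3 and 12.4 in serum (-2.79, SE 0.19, limma adjusted p = 3.7e-05). *Zfp473*, which takes part in histone mRNA processing, was at 3.73 and 3.36 against 12.6 and 11.4 (-1.73, SE 0.18, limma adjusted p = 0.000149), and both genes were members only through serum. *Zfp106* was at 24.7 and 30.5 in WT 2i against 71.9 and 70.4 in serum (-1.37, SE 0.15, limma adjusted p = 0.000233). *Zfp593*, a ribosome assembly factor, was the one that rose, at 18.2 and 14.6 against 9.19 and 10.7 (0.71, SE 0.17, limma adjusted p = 0.00735).

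Of the remaining large falls, *Zfp459* was at 5.13 and 6.66 FPKM in WT 2i against 35.2 and 36.2 in serum (-2.59, SE 0.16, limma adjusted p = 2.85e-05). *Zfp459* and *Zfp953* (-2.26, SE 0.19) are neighbours in a run of 8 members on chromosome 13. In that run 5 members were lower in WT 2i, and all genes of chromosome 13 had a median of -0.62 in this comparison, and with values centred on chromosome medians 3 of the 8 were lower, *Zfp459*, *Zfp953* and *Zfp65*, and *Zfp58* was higher. *Zfp664* fell by 2.05 on the log2 scale (SE 0.18). *Zfp808* (-2.11, SE 0.51), *Zfp977* (-2.10, SE 0.56) and *Zfp936* (-2.04, SE 0.43) had larger errors. *Zfp808* was at 1.95 and 6.23 in WT 2i, *Zfp977* at 2.79 and 7.97 and *Zfp936* at 6.09 and 15.0. The WT 2i libraries were more than 2-fold apart for 7 members (4.19%, against 6.43% of all genes tested), with library 1 the lower in each. The count was 2 in P53-/- 2i (1.2% against 4.56%), 1 in P53-/- serum (0.599% against 5.07%) and 0 in WT serum (4.34% of all genes). Without that library, 76 members were lower and 19 higher in WT 2i.

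The members higher in 2i were led by *Zfp688*, a KRAB gene with 2 fingers, at 15.0 and 14.4 FPKM in WT 2i against 2.79 and 3.08 in serum (2.29, SE 0.15, limma adjusted p = 3.36e-05). *Zfp956* was at 17.4 and 14.1 against 3.60 and 3.49 (2.11, SE 0.16, limma adjusted p = 5.4e-05), and *Zfp771* at 28.3 and 30.6 against 6.24 and 9.36 (1.93, SE 0.26, limma adjusted p = 0.000506). Libraries of each of these genes did not overlap between cultures. *Zfp637* (1.79), *Zfp954* (1.60), *Zfp787* (1.49), *Zfp746* (1.42), *Zfp692* (1.12) and *Zfp12* (1.01) were also among the 10 largest rises on the log2 scale. Of these 10, 8 had a mean under 5 in serum and were members only through 2i, so that the choice of members favoured their rises, and *Zfp771* and *Zfp954* were the exceptions. Several of them were neighbours. On chromosome 6, *Zfp212*, *Zfp956*, *Zfp777* and *Zfp746* are neighbours and 4 of 4 were higher in WT 2i, with a median of 1.12, while all genes of chromosome 6 had a median of 0.33. With values centred on chromosome medians, 2 of the 4 were called, *Zfp956* and *Zfp746*. The same 2 genes were called in P53-/- ESCs, and both were members only through 2i, while *Zfp212* and *Zfp777* had means of at least 5 in both cultures. On chromosome 7, 3 of the 4 neighbours *Zfp553*, *Zfp771*, *Zfp688* and *Zfp646* were higher in WT 2i (75%, against 27.2% of all genes tested). All genes of chromosome 7 had a median of 0.29. With values centred on chromosome medians, *Zfp553*, *Zfp771* and *Zfp688* kept their calls. In P53-/- ESCs 2 of the 4 were called higher. The other runs of chromosome 7 went mostly the other way in WT, with 2, 3 and 4 members lower and 0, 0 and 1 higher.

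**Figure D2:**
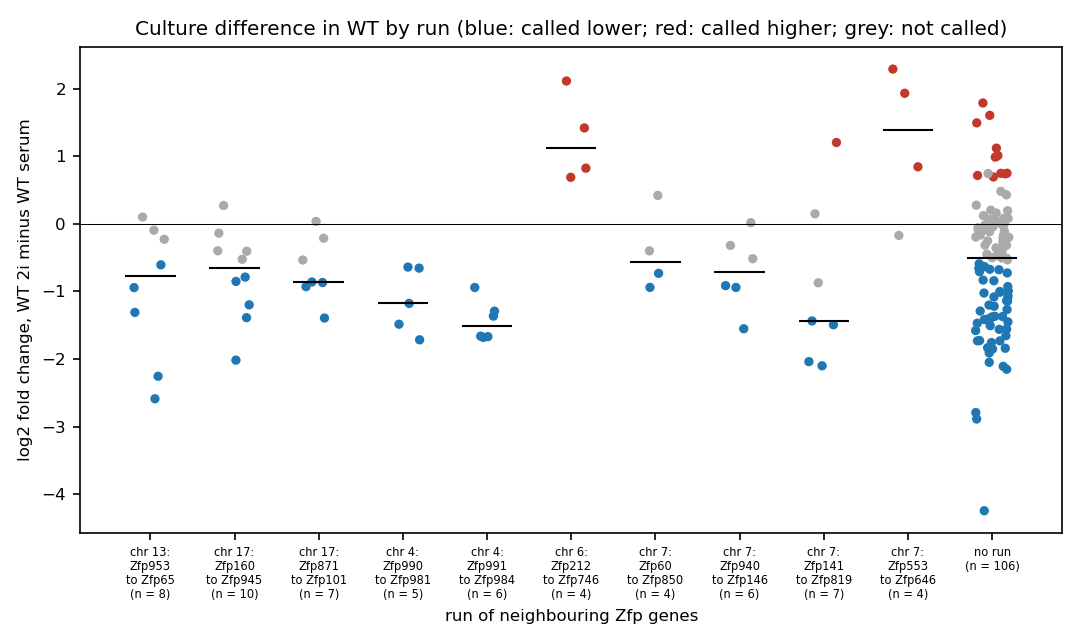
The log2 fold change of WT 2i minus WT serum is shown for every member, grouped by run of neighbouring genes and named by its chromosome and its first and last member, with black bars at the medians. All 11 genes of the chromosome 4 runs were called lower and all 4 of the chromosome 6 run higher, of which 9 and 2 kept their call with values centred on chromosome medians.

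The 11 genes of the chromosome 4 runs were all lower in 2i in WT ESCs (median -1.37) and in P53-/- ESCs (median -1.33), while all genes of chromosome 4 had a median of 0.04 in WT. Of these genes, *Zfp600* and *Zfp991* had means under 5 in 2i and were members only through serum. The weakest in WT were *Zfp981*, which lost its call in 10 of 19 alternative settings and fell to -0.29 without WT serum library 2, and *Zfp992*, which lost it in 2. *Zfp990*, the highest of them, was at 54.8 and 63.8 FPKM in WT 2i against 122 and 148 in serum (-1.18, SE 0.15, limma adjusted p = 0.000441). *Zfp979* was at 35.7 and 42.0 against 109 and 142 (-1.68, SE 0.17, limma adjusted p = 0.000142). *Zfp980* was lower in P53-/- ESCs, at 6.27 and 7.66 in 2i against 37.8 and 36.2 in serum (-2.40, SE 0.19, limma adjusted p = 5.25e-05). The genes share sequence with each other and with further copies, since *Zfp600* shared 85.0% of its transcript words with other genes, *Zfp991* 87.0%, *Zfp980* 72.6% and *Zfp982* 11.5%. Their separate levels are therefore uncertain, and they are not independent measurements. Over all members, those with under 10% shared words had 59 lower (44.7%) and 20 higher (15.2%) of 132 in WT 2i, and those with at least 10% had 24 lower (70.6%) and 0 higher of 34, against 28.6% lower and 27.2% higher of all genes tested. The difference between these sets was not tested. Both sets include members that reached the mean of 5 through 1 culture only, which favoured their calls.

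**Figure D3:**
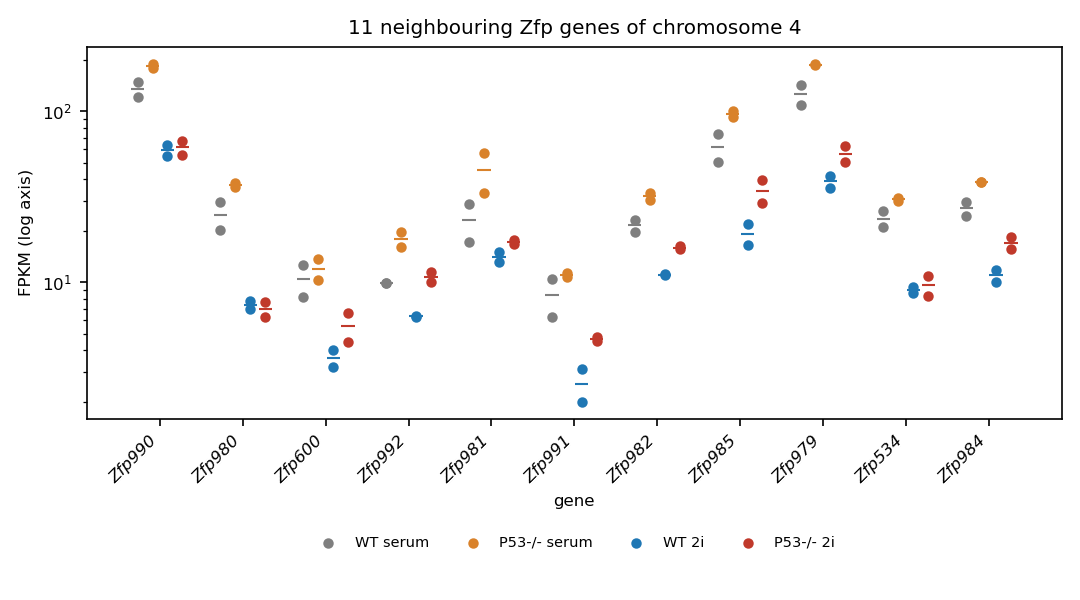
FPKM of the 11 genes of the chromosome 4 runs on a log axis, with a point for each library and a bar at the mean of each group of 2. Serum points lie above 2i points of the same genotype for every gene, and P53-/- means lie above WT means for all but *Zfp980* in 2i.

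By class, 41 of 72 KRAB members were lower (56.9%) and 7 higher (9.72%) in WT 2i, with a median of -0.82. Of 92 members with fingers but no KRAB match, 41 were lower (44.6%) and 13 higher (14.1%), with a median of -0.48. Over all genes tested 28.6% were lower and 27.2% higher, and the difference between the classes was not tested. Of 33 genes of the KRAB corepressor and heterochromatin list, 19 were lower in WT 2i (57.6%, against 28.6% of all genes tested) and 0 were higher by limma. In P53-/- 2i, 17 were lower (51.5% against 30.1%) and 1 was higher. *Trim28*, the corepressor itself, did not pass in either genotype, at 431 and 537 FPKM in WT 2i against 362 and 360 in serum. *Setdb1*, its histone methyltransferase, did not pass either, at 41.6 and 30.9 against 30.4 and 29.4. Members of the list that fell included *Cbx1*, a heterochromatin protein that was at 68.1 and 74.6 in WT 2i against 255 and 257 in serum. The DNA methyltransferase gene *Dnmt3a* was at 1.55 and 1.59 against 13.8 and 13.98, and the remodeller gene *Hells* at 87.4 and 89.3 against 304 and 320.

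The comparison of P53-/- with WT asked which genes depend on P53 in each culture. In 2i, 3 members were lower in P53-/- ESCs (1.8%, against 5.97% of all genes tested) and 9 were higher (5.39% against 4.36%). In serum, 0 members were lower by limma (0.883% of all genes) and 1 was higher (0.599% against 0.135%). At an unadjusted p under 0.05, 34 members passed in 2i (20.4% against 25.2%) and 31 in serum (18.6% against 11.3%). A fit of the 2i libraries alone called 0 members in either direction, so the calls in 2i rest on the spread shared with the serum libraries. Each of the 9 rises lost its call when at least 1 of the 8 libraries was left out. Their number became 2 without either P53-/- 2i library and 4 without either WT serum library. The serum call was lost when any library other than P53-/- serum 1 was left out.

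*Zfp57* had the smallest adjusted p of the 3 falls. It was at 119 and 95.4 FPKM in WT 2i against 55.5 and 61.7 in P53-/- 2i, and the groups did not overlap. The log2 fold change was -0.87 (SE 0.15, limma adjusted p = 0.0204), a level 1.82-fold lower. In serum it was at 131 and 109 in WT against 115 and 107 in P53-/- ESCs, where the groups overlapped. The call in 2i held in 18 of 19 alternative settings, and the exception was the fit of the 2i libraries alone. The difference between cultures did not pass (interaction -0.76, SE 0.22, limma adjusted p = 0.223). In GRCm38 *Zfp57* lies on chromosome 17 from 37001163 to 37010635 on the plus strand and encodes 3 fingers by the pattern used, and none of its 3 RefSeq promoters held the P53 decamer. Only exact matches within these promoters were searched, and P53 sites elsewhere were not tested.

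*Zfp692*, a repressor of gluconeogenic genes, was at 11.4 and 8.86 FPKM in WT 2i against 5.31 and 4.79 in P53-/- 2i (-0.98, SE 0.19, limma adjusted p = 0.0291). In serum it was at 5.21 and 4.003 in WT and at 3.64 and 3.77 in P53-/- ESCs. With a serum mean of 4.15, *Zfp692* was a member only through 2i, where its WT libraries were the highest. The choice of members therefore favoured this fall. *Zfp423* was at 0.695 and 0.494 in WT 2i against 0.211 and 0.291 in P53-/- 2i (-0.98, SE 0.23, limma adjusted p = 0.0477), all levels under 1 FPKM. The fall of *Zfp423* shrank to -0.35 and lost its call with a pseudocount of 1. Without P53-/- 2i library 2 the call of *Zfp692* was lost. That of *Zfp423* was lost without WT 2i library 1, P53-/- 2i library 1 or either WT serum library.

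Of the 9 rises in 2i, 7 belonged to the 72 KRAB genes by the pattern (9.72%) and 1 to the 92 genes with fingers and no KRAB match (1.09%), against 4.36% of all genes tested. The difference between the classes was not tested. Of the 7, 3 genes, *Zfp984*, *Zfp985* and *Zfp992*, lay in the chromosome 4 runs. *Zfp992* was the member called in both cultures. It was at 6.34 and 6.29 FPKM in WT 2i against 9.98 and 11.5 in P53-/- 2i (0.75, SE 0.15, limma adjusted p = 0.0289). In serum it was at 9.85 and 9.96 in WT against 16.1 and 19.7 in P53-/- ESCs (0.84, SE 0.15, limma adjusted p = 0.0708). It shared 43.7% of its transcript words with other genes, mainly *Zfp991*, so these reads may belong in part to copies. *Zfp984* was at 10.05 and 11.9 in WT 2i against 15.7 and 18.3 (0.63, SE 0.15, limma adjusted p = 0.049), and *Zfp985* at 16.5 and 22.0 against 28.9 and 39.5 (0.82, SE 0.23, limma adjusted p = 0.0744). *Zfp985* lost its call in 12 of 19 alternative settings and *Zfp984* in 4, among them the values centred on chromosome medians for *Zfp984*. Over the 11 genes of these runs the P53 contrast had a median of 0.54 in 2i and 0.57 in serum on the log2 scale, while all genes of chromosome 4 had medians of 0.03 and 0.01.

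*Zfp330*, known as NOA36 and found in nucleoli, was at 67.9 and 69.8 FPKM in WT 2i against 107 and 103 in P53-/- 2i (0.61, SE 0.10, limma adjusted p = 0.0174). Its libraries were close within groups. *Zfp958* was at 7.60 and 7.86 against 14.6 and 13.4 (0.84, SE 0.19, limma adjusted p = 0.0442), and *Zfp317* at 10.9 and 12.1 against 18.5 and 18.0 (0.66, SE 0.15, limma adjusted p = 0.0451). *Zfp948* (0.86, SE 0.22), *Zfp383* (0.64, SE 0.17) and *Zfp639* (0.65, SE 0.17) were the other rises. *Zfp330* lost its call in 3 of 19 settings, among them quantile normalization, and *Zfp958* in 5. *Zfp317* lost its call in 7 of 19 settings, *Zfp948* in 7 and *Zfp383* and *Zfp639* in 8 each. The largest difference of all, in *Zfp951*, was not called in either culture. Its P53-/- libraries were at 15.0 and 21.5 in 2i and at 8.30 and 20.3 in serum, against 6.17 and 10.8 in WT 2i and 4.72 and 4.94 in WT serum.

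**Figure D4:**
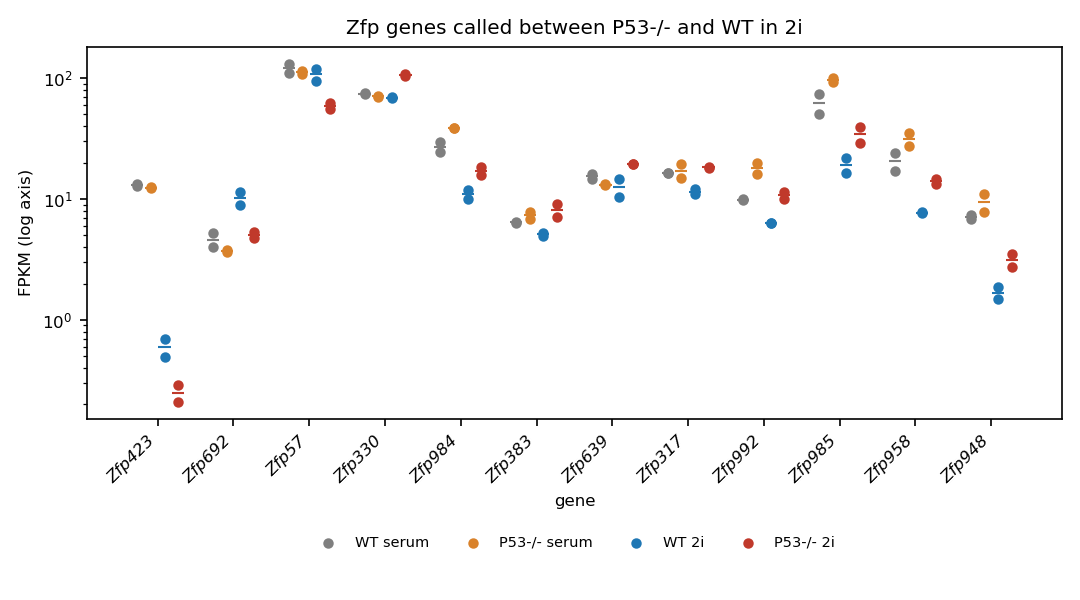
FPKM on a log axis of the 12 members called between P53-/- and WT in 2i, with a point for each library and a bar at the mean of each group of 2. The first 3 genes, from *Zfp423* to *Zfp57*, lie lower in P53-/- 2i than in WT 2i, and the other 9 lie higher.

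Over called and uncalled members together, most lay above WT in P53-/- ESCs. The log2 fold change was above 0 for 139 of 167 members in serum (median 0.22, all genes 0.02) and for 112 in 2i (median 0.10, all genes 0.02). In serum both P53-/- libraries lay above both WT libraries for 93 members, 55.7% against 25.7% of all genes, and below them for 12, 7.19% against 21.8%. In 2i these were 52 members, 31.1% against 29%, and 16 members, 9.58% against 24.7%. When single libraries were left out, the serum median lay between 0.15 and 0.29, and the 2i median between 0.02, without WT 2i library 1, and 0.24, without WT 2i library 2. *Zfp281* was among the serum members with separate groups, at 51.9 and 59.8 in WT against 79.8 and 85.2, without passing the test (limma adjusted p = 0.227). *Zfp982* of chromosome 4 was at 19.8 and 23.2 in WT serum against 30.2 and 33.4 (limma adjusted p = 0.149). *Zfp809* went the other way, at 38.6 and 43.7 in WT serum against 31.2 and 19.5, and did not pass (limma adjusted p = 0.281).

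**Figure D5:**
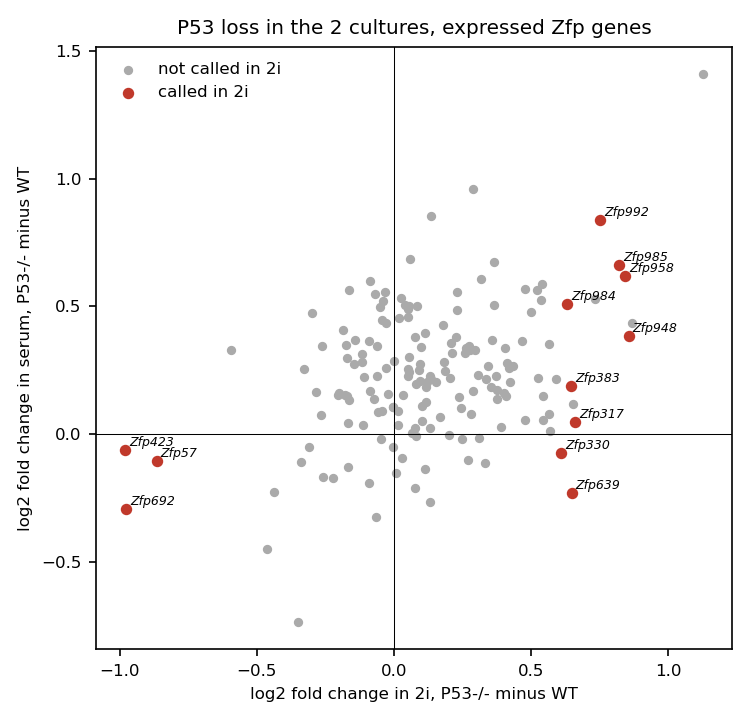
Each point is a member, placed by its log2 fold change of P53-/- minus WT in 2i (horizontal) and in serum (vertical), comparisons that share no library. Red points are the 12 members called in 2i, and most of the 167 points lie above the horizontal line at 0.

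The direction of the P53 difference was the same in both cultures for 114 members (68.3%, against 59.5% of all genes tested), and most members lay above 0 in each culture. The test of the difference between cultures called 0 members by limma (0.207% of all genes), and 16 had an unadjusted p under 0.05 (9.58% against 13.1%). On the corepressor list of 33 genes, P53 loss gave 1 rise (3.03%) and 0 falls by limma in each culture. Over all genes tested, 4.36% rose and 5.97% fell in 2i, and 0.135% rose and 0.883% fell in serum. The rises were *Suv39h1* in 2i, at 4.72 and 4.58 in WT against 7.75 and 8.53, and *Dnmt3a* in serum, at 13.8 and 13.98 against 24.2 and 29.0. *Trim28* and *Setdb1* were not called for P53 in either culture. The 2 members linked to P53 in the literature, *Zfp148* and *Zfp346*, did not pass in either culture, with *Zfp148* at 5.44 and 5.10 in WT 2i against 6.65 and 7.10 in P53-/- 2i.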

How the data were processed

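RNA-seq of G1-sorted ESCs was analysed from 1 table of FPKM values that the authors deposited, with 24881 symbols and 8 columns. The submitters' processing notes name STAR, Cufflinks, DESeq2 and the build mm9, without versions or roles, and the labels give Ribo-Zero depletion, random priming and stranded libraries. Libraries of P21-/- ESCs and their WT controls are not analysed here. Column names give genotype and culture but no replicate number or clone.

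Values were taken as log2(FPKM + 0.1), and limma 3.58.1 (R 4.3.3) was run over 12572 genes whose mean FPKM reached 0.5, in 1 fit of 4 groups with eBayes trend and Benjamini-Hochberg adjustment over all genes tested. Calls needed an adjusted p under 0.1 together with a fold over 1.5, the thresholds of the study. Fold changes are on the log2(FPKM + 0.1) scale, which understates those of low genes. The pipeline was tested on simulated data. Depth was estimated from the steps of low values, so counting errors are approximate.

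Named members are, per comparison, up to 10 called members in each direction with groups apart, the 10 highest, those at the threshold and those on role lists. *Zfp951*, *Zfp982*, *Zfp980* and the corepressor genes with values were named after their values were seen, as were the promoters shown. The members and lists were chosen with earlier results of these data known. Reference annotation is GRCm38, another build than mm9, so genes were matched by symbol only. No table of RefSeq proteins was used: fingers (C, 2 to 4 residues, C, 12 residues, H, 3 to 5 residues, H) and KRAB boxes were counted in translated GENCODE M21 coding sequences. Figures used Python 3.11.15 with matplotlib 3.10.9.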

Additional observations from a re-analysis of the deposited data

Results flagged for a closer look

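*Zfp330* and *Zfp639*, which were called higher in P53-/- 2i, stood out because both P53-/- libraries lay above both WT libraries in 2i and below both in serum. *Zfp330* was at 73.4 and 75.2 FPKM in WT serum against 71.7 and 69.5 in P53-/- serum, and the difference between cultures was 0.68 (SE 0.15, limma adjusted p = 0.167). It shared 19.1% of its transcript words with *Gm7785*. *Zfp639* was at 10.4 and 14.6 in WT 2i against 19.3 and 19.5 in P53-/- 2i, and at 14.7 and 16.2 in WT serum against 13.0 and 13.2 in P53-/- serum, with a difference of 0.88 (SE 0.24, limma adjusted p = 0.21). Neither passed the threshold. With the uncalled *Zfp706*, 3 members had this order (1.8%, against 3.82% of all genes tested), and 4 had the reverse (2.4% against 3.79%).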

How the results depend on the processing

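No paired analysis was possible because the columns carry no replicate numbers. The fit of only the libraries of a contrast called 0 members lower and 0 higher for P53 in 2i and 0 higher in serum. With an adjusted p under 0.05 there were 5 rises for P53 in 2i and 0 in serum. The serum count of 1 rise became 0 with all genes above 0 in any library and with eBayes without trend, and 3 with values centred on chromosome medians, which left 7 of the 9 rises in 2i and ended the calls of *Zfp317* and *Zfp984*. With membership at a mean of at least 3 the falls for P53 in 2i became 8. With membership at a mean of at least 10, P53 in 2i had 1 fall, WT 2i against serum 49 falls and 5 rises, and P53-/- 2i against serum 51 falls and 5 rises. That set held 81 members. With each library left out in turn, falls and rises ranged from 2 to 3 and from 2 to 13 for P53 in 2i, from 0 to 1 and from 0 to 1 for P53 in serum, from 76 to 91 and from 17 to 21 for culture in WT, and from 85 to 94 and from 16 to 20 for culture in P53-/- ESCs, and no member was called for the interaction. A group left with 1 library is assumed to vary like the others. Of the called members, 86 of 104 in WT and 86 of 106 in P53-/- ESCs kept their culture call in every setting, and no called member changed direction. Where a cause is not given, the cause was not tested. Counting error at 5 FPKM was 10.9% in the least deep library.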
